A study of Mus musculus with 12 samples.

Results

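Gpr85, Gpr27 and Gpr173 are the 3 genes of one family of orphan receptors, known as the super-conserved receptors expressed in brain. The 3 genes were taken by symbol from a deposited expression table of 32494 genes, and 3 of 3 were found and passed the minimum level for testing (a mean of 1 CPM, the normalized read count scaled to the library size). The 3 genes were chosen by their CPM difference between the 2 groups of these libraries, which was known when the family was proposed, so every difference between WT and cKO in the 3 receptors below is a description and carries no p-value. The libraries are RNA sequencing of hypothalamus from 12 male mice, all carrying floxed Smc3 and all given tamoxifen, 5 weeks before sampling per the labels, and aged 8 weeks at a step that the growth protocol leaves unnamed. The 7 mice grouped as WT lack the Camk2a-cre/ERT2 transgene and the 5 grouped as cKO carry it. The product of Smc3 is part of the cohesin ring, which shapes chromosome loops. The Camk2a promoter drives the tamoxifen-dependent recombinase in forebrain excitatory neurons, so other cells of the tissue are not targeted, and bulk RNA cannot tell fewer cells of a type from less RNA per cell. The word control stands in the titles of both groups and was not used.

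Orphan receptors are G protein-coupled receptors whose natural ligand is not settled. The 3 genes of this family encode class A receptors that are expressed in neurons. Gpr85 is known for its expression in developing and adult neurons and for effects on brain size in mouse models. Gpr27 has been studied mostly for insulin production in pancreatic beta cells. Gpr173 has been proposed as a receptor for phoenixin, a hypothalamic peptide cut from the product of Smim20 and tied to reproductive hormone release.

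In the GENCODE M21 annotation of GRCm38, Gpr85 (ENSMUSG00000048216.13) lies on the minus strand at chr6:13834458-13839942, Gpr27 (ENSMUSG00000072875.2) on the plus strand at chr6:99692679-99695066 and Gpr173 (ENSMUSG00000056679.13) on the minus strand at chrX:152343598-152368704. The deposited files name no build, so these coordinates place the genes and were not joined to any value. Each receptor is encoded within 1 exon. That exon is the whole of Gpr27, the last of 4 in the longest Gpr85 transcript and the last of 3 in Gpr173. The coding sequences hold 370 codons in Gpr85, 379 in Gpr27 and 373 in Gpr173. Over aligned coding bases, identity was 58.7% between Gpr85 and Gpr27, 65.1% between Gpr85 and Gpr173 and 63.9% between Gpr27 and Gpr173. GC content of the coding sequence was 49.0% in Gpr85, 56.9% in Gpr173 and 72.8% in Gpr27.

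The stretch of 60 coding bases on which the 3 receptors were most alike shows how close the family is. It has 46 bases shared by all 3, and capitals mark the bases that are not shared. It starts at coding base 325 in Gpr85, 337 in Gpr27 and 331 in Gpr173.
Gpr85: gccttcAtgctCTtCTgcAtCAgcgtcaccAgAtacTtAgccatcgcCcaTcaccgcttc
Gpr27: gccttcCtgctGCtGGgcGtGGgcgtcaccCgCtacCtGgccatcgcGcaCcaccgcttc
Gpr173: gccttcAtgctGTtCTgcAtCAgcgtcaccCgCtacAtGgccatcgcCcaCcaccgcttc
The least alike ungapped stretch of the same length has 19 shared bases and is shown for contrast. It starts at coding base 913 in Gpr85, 922 in Gpr27 and 916 in Gpr173.
Gpr85: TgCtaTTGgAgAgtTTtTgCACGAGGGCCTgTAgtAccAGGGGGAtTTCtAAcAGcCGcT
Gpr27: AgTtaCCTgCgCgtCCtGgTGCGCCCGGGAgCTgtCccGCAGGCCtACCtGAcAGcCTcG
Gpr173: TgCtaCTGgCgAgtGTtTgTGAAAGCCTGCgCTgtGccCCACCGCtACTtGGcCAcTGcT
Over the whole alignment 536 of the 1101 columns that hold a base of every receptor (48.7%) were identical in all 3.

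The libraries held 17.1 M to 24.0 M recovered reads (M for mega) in 11 mice and 68.7 M in WT 1. The targeted gene went against the group labels. Smc3 was at 76.8 to 85.7 CPM in the 7 libraries labelled WT and at 116 to 144 CPM in the 5 labelled cKO, and limma put the difference at 0.67 in log2 units (SE 0.05) with an adjusted p-value of 3.06e-05. The table holds 1 value a gene, which cannot show reads of deleted exons apart from others, and whether the labels are exchanged was not tested. Directions below, and the names WT and cKO, therefore refer to the labels, and each sign would turn if they were exchanged. Markers of the labelled tissue varied within both groups. The mean of log2(CPM + 1) over 16 hypothalamic neuron genes ran from 2.20 to 4.49 in WT and from 2.83 to 4.62 in cKO, with WT 4, WT 5 and cKO 12 under 3, and none of the 16 genes was at 0 in all libraries. The mean score was 3.47 ± 0.895 in WT and 3.84 ± 0.788 in cKO (SD), and limma placed 1 of the 16, Sim1, past the threshold, higher. The same score over 12 thalamic neuron genes ran from 5.93 to 6.97 in WT and from 5.17 to 6.18 in cKO, and limma placed 4 of the 12 (Prkcd, Ntng1, Plekhg1 and Rgs16) past the threshold, all lower. The part of these marker differences in the results below was not tested beyond the fits given with them. In the whole table, 2172 of 15359 genes (14.1%) were past limma's threshold (0.05 after adjustment). Those above WT in cKO were 1004 (6.54%) and those below it 1168 (7.6%). Median centring gave 1377 higher and 1054 lower, the thalamic score as a covariate left 833 in all, and leaving out WT 1 left 1158. Group ranges did not overlap in 6.73% of genes, with cKO above in 3.52% and below in 3.2%.

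The receptors were at different levels and differed unequally between the groups. Gpr85 was higher in the libraries labelled cKO, with a mean of 52.1 ± 3.91 CPM over 5 mice (SD) where the 7 WT mice had 39.2 ± 0.860 CPM, a ratio of 1.33. Gpr27 had a smaller difference in the same direction, at 46.1 ± 4.29 CPM against 39.7 ± 3.01 CPM, a ratio of 1.16. Gpr173 was at 17.3 ± 1.30 CPM in cKO and 17.1 ± 1.16 CPM in WT, a ratio of 1.01.

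Gpr85 was at 38.1 CPM in WT 7, 38.1 in WT 5, 39.2 in WT 11, 39.4 in WT 1, 39.4 in WT 4, 39.7 in WT 6 and 40.5 in WT 15. In the libraries labelled cKO it was at 45.9 CPM in cKO 12, 52.0 in cKO 9, 52.0 in cKO 13, 54.8 in cKO 8 and 55.9 in cKO 14. The groups did not overlap, and the lowest cKO library stood above every WT library. These values rest on 799 to 1307 reads in 11 libraries and 2707 in WT 1. The log2 fold change on the log2(CPM + 1) scale was 0.40 (SE 0.05), and 83 of the 15359 tested genes had a larger one. In the authors' deposited table it was 0.41. Ranges that did not overlap, with cKO above, were found in 3.52% of all tested genes. Nothing is read from that share or from the count of 83 genes for Gpr85, since the group difference was known when the gene was chosen.

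Gpr27 was at 36.0 CPM in WT 4, 36.2 in WT 5, 39.0 in WT 1, 39.2 in WT 6, 40.9 in WT 11, 43.0 in WT 7 and 43.6 in WT 15. Among the libraries labelled cKO it was at 39.8 CPM in cKO 13, 43.4 in cKO 12, 48.4 in cKO 9, 49.4 in cKO 8 and 49.4 in cKO 14. The groups overlapped: 3 of 5 cKO libraries were above the highest WT library, and cKO 13 and cKO 12 lay within the WT range. The values rest on 731 to 1177 reads outside WT 1. The log2 fold change was 0.21 (SE 0.07), and 0.21 in the authors' deposited table. A larger log2 fold change was found in 812 of the 15359 tested genes.

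Gpr173 was at 15.7 CPM in WT 7, 15.9 in WT 4, 16.7 in WT 5, 16.9 in WT 15, 17.3 in WT 1, 18.0 in WT 11 and 19.0 in WT 6. The libraries labelled cKO were at 15.9 CPM in cKO 12, 16.4 in cKO 13, 17.0 in cKO 9, 18.2 in cKO 8 and 19.1 in cKO 14. The group ranges covered nearly the same span. Counts were 322 to 436 reads outside WT 1. The log2 fold change was 0.02 (SE 0.06), where the median of all tested genes was 0.01, and it was 0.02 in the authors' deposited table. It was exceeded by 7289 of the 15359 tested genes.

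**Figure D1:**
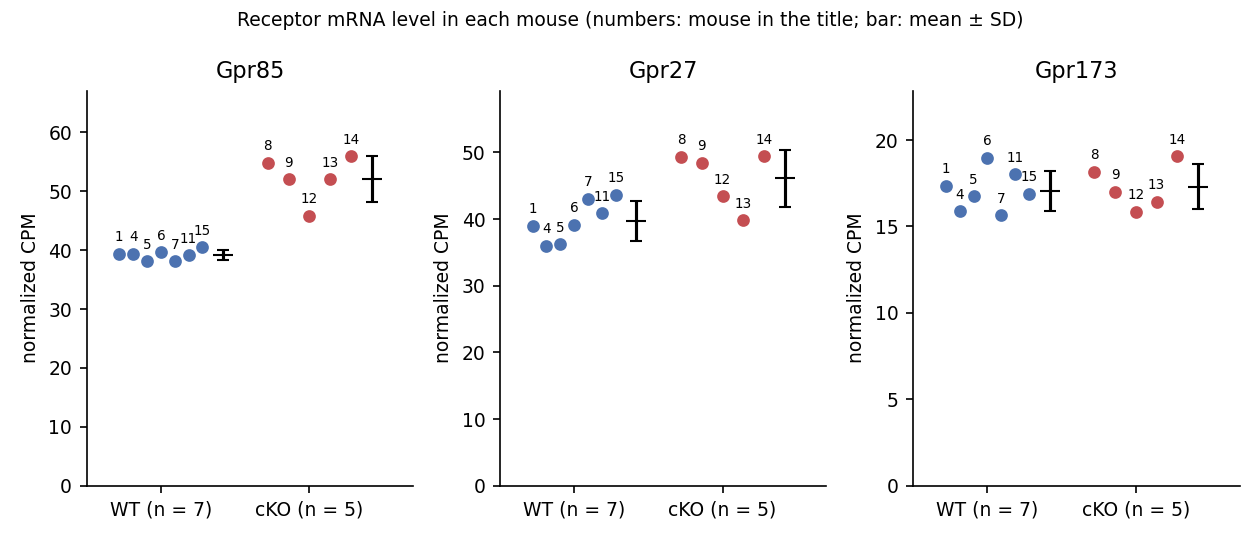
Normalized CPM of Gpr85, Gpr27 and Gpr173 in each mouse, with WT libraries in blue, cKO libraries in red, the mouse number beside each point and the mean ± SD to the right of each group. Gpr85 lies at 38.1 to 40.5 CPM in WT and 45.9 to 55.9 CPM in cKO, while the ranges of Gpr27 and Gpr173 overlap.

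The mice at the ends of the cKO group were partly shared. Among the libraries labelled cKO, cKO 14 was highest for all 3 receptors, with cKO 8 next for each. The lowest was cKO 12 for Gpr85 and Gpr173 and cKO 13 for Gpr27. Smc3 was also lowest in cKO 12 (116 CPM), and its highest libraries were cKO 8 (144 CPM) and cKO 14 (136 CPM). The hypothalamic neuron score was highest in these same 2 libraries, at 4.62 in cKO 14 and 4.38 in cKO 8, and lowest in cKO 12 at 2.83. A fit with that score, added once the data had been seen, is given here. In it the log2 fold changes were 0.38 for Gpr85 (SE 0.04), 0.17 for Gpr27 (SE 0.05) and -0.01 for Gpr173 (SE 0.05). With WT 4, WT 5 and cKO 12 left out together, likewise added later, they were 0.44 for Gpr85, 0.18 for Gpr27 and 0.02 for Gpr173.

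With the thalamic score as a covariate, the log2 fold changes were 0.44 for Gpr85 (SE 0.06), 0.25 for Gpr27 (SE 0.09) and 0.04 for Gpr173 (SE 0.08). The score of 10 general neuronal genes was 8.89 ± 0.0965 (SD, n = 7) in WT and 9.01 ± 0.0784 (SD, n = 5) in cKO, and 2 of its 10 genes, Stmn2 and Elavl4, were past limma's threshold, both higher, where 6.54% of all tested genes were. With the neuronal score as a covariate the log2 fold changes were 0.44 for Gpr85 (SE 0.06), 0.31 for Gpr27 (SE 0.07) and 0.11 for Gpr173 (SE 0.06). Each receptor's difference was thus larger with the thalamic or the neuronal score than without a covariate, and lower with the hypothalamic score. All these shifts were smaller than the receptor's within-group SD, and the part of tissue composition in them was not tested.

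**Figure D2:**
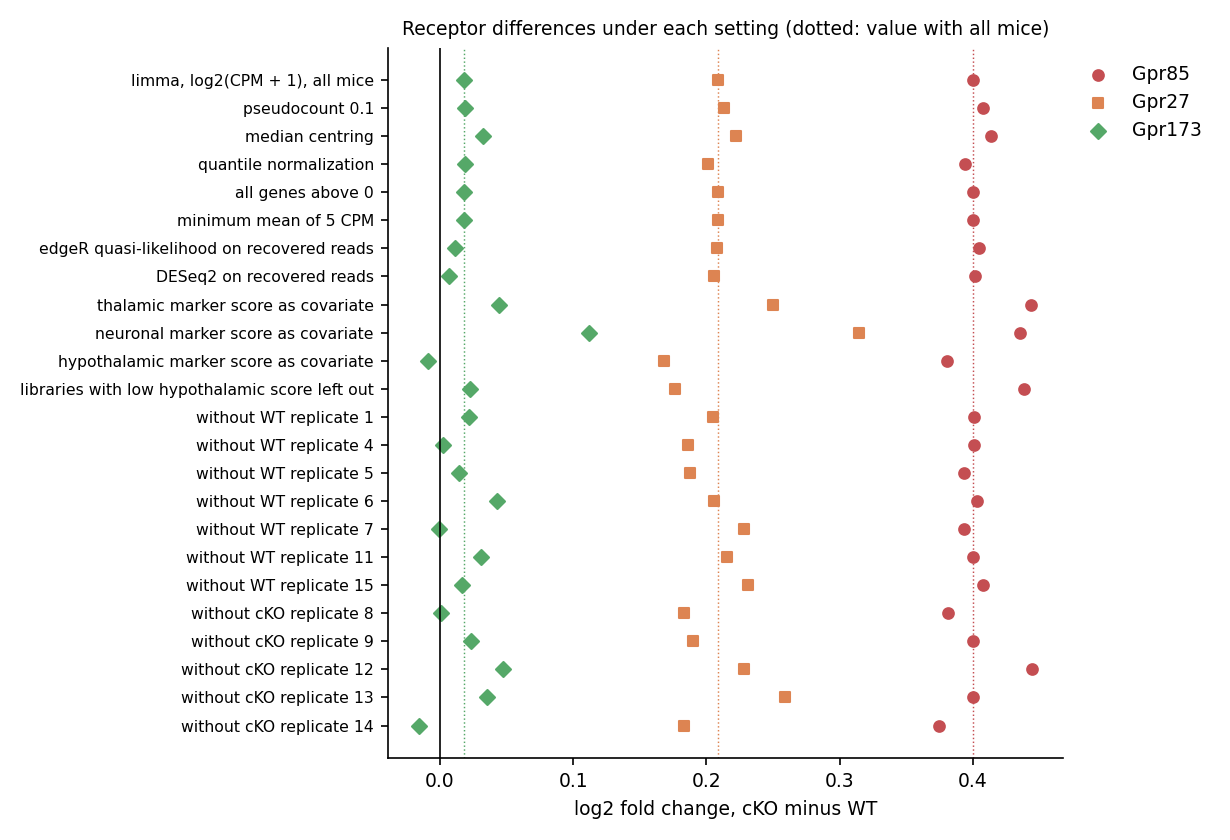
Log2 fold change (cKO minus WT) of Gpr85, Gpr27 and Gpr173 under each setting, 1 row per setting, with dotted lines at the values with all mice. Gpr85 stays between 0.37 and 0.44 and Gpr27 between 0.17 and 0.31, while Gpr173 lies on both sides of 0, from -0.02 to 0.11.

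The spread between mice differed among the receptors as well. In WT the SD of Gpr85 was 0.860 CPM, where counting error alone gives 1.26 CPM, a ratio of 0.682. In cKO its SD was 3.91 CPM against a counting error of 1.60 CPM, a ratio of 2.45. For Gpr27 the SD was 2.36 times the counting error in WT and 2.85 times in cKO, and for Gpr173 it was 1.39 and 1.41 times. These ratios are descriptions, since separate mice are expected to vary by more than counting error. Among the 2754 tested genes within 0.5 log2 units of its level, 25.1% had a smaller within-group SD than Gpr85. Of the 2734 such genes around Gpr27, 71.3% had a smaller SD, and of the 2513 around Gpr173, 30.5% did.

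Whether the receptors varied together among mice of one group does not depend on the group difference, and it was asked over the 7 WT libraries. Pearson's r was 0.26 between Gpr85 and Gpr27 (exact permutation p-value 0.564, two-sided), with a Spearman's rho of 0.11 (exact p-value 0.840). It was 0.40 between Gpr85 and Gpr173 (exact permutation p-value 0.390), with a rho of 0.46 (exact p-value 0.302). It was 0.02 between Gpr27 and Gpr173 (exact permutation p-value 0.962), with a rho of 0.11 (exact p-value 0.840). None of the 3 pairs passed 0.05, and the values adjusted over the 3 pairs were 0.846, 0.846 and 0.962 for r (exact permutation) and 0.840 for each rho. The SD of Gpr85 in WT was 0.682 times its counting error. Its values there may thus hold little but counting error, and its 2 pairs cannot decide whether it varied with the others. Without the 2 libraries farthest from the median of the first gene, r became 0.66, -0.12 and 0.80 in the same order, so the size of each r rests on those mice. No correlation was computed over the 5 cKO libraries, so these values speak of the WT libraries alone.

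Levels of different genes were compared per kilobase of annotated exon, with 4.08 kb for Gpr85, 2.39 kb for Gpr27 and 5.11 kb for Gpr173. In WT, Gpr27 was highest at 16.6 ± 1.26 CPM per kb (SD, n = 7), followed by Gpr85 at 9.60 ± 0.211 and Gpr173 at 3.34 ± 0.228. The ranges of neighbours in this order did not overlap, with 15.1 to 18.3, 9.32 to 9.93 and 3.07 to 3.71 CPM per kb. In cKO the order was the same, at 19.3 ± 1.80, 12.8 ± 0.958 and 3.39 ± 0.254 CPM per kb (SD, n = 5), again without overlap. The order rests on GENCODE exon lengths, which need not be those the authors counted. Among 43 class A orphan receptors that were tested and had a length, Gpr27 ranked 5th, Gpr85 10th and Gpr173 24th in WT by CPM per kb. Gpr27 stood level with Gpr37, at 16.7 ± 4.38 CPM per kb.

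Overlapping genes could affect the counting of Gpr27 and Gpr173. In the RefSeq gene table of GRCm38.p6, Gpr27 overlaps Eif4e3, which encodes a relative of the cap-binding protein, by 507 bases, and Gpr173 overlaps 3010001F23Rik by 165 bases. In GENCODE M21 the overlap of Gpr173 was 132 bases, and no gene was found to overlap Gpr27. The strands of Gpr27 and Eif4e3 were not compared. Eif4e3 was at 20.9 ± 1.64 CPM in WT (SD, n = 7) and 20.7 ± 1.36 in cKO (SD, n = 5). 3010001F23Rik had a mean of 1.04 CPM in WT and 1.23 CPM in cKO. Neither was past limma's threshold (adjusted p-values 0.935 and 0.503). Whether the authors' counting used strand is not given in the sources used here, so reads of Gpr173 and of 3010001F23Rik, on the opposite strand in GENCODE, could not be told apart where they overlap.

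Whether promoter sequence bears on the unequal group differences of the family was not tested. The promoter windows of Gpr85 and Gpr173 are shown as a description. They come from the RefSeq promoter table of GRCm38.p6, which matched these 2 of the 3 members, and span 250 bases before to 50 bases after the gene start. Capitals in Gpr85 mark matches to CCAAT on either strand.
Gpr85 (chr6:13839893-13840192, minus strand): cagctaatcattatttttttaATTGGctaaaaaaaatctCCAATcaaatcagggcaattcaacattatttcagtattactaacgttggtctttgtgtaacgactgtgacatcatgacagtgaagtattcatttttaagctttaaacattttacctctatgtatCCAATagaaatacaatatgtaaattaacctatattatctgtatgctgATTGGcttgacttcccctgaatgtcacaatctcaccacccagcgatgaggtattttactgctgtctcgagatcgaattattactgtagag
Gpr173 (chrX:152368669-152368968, minus strand): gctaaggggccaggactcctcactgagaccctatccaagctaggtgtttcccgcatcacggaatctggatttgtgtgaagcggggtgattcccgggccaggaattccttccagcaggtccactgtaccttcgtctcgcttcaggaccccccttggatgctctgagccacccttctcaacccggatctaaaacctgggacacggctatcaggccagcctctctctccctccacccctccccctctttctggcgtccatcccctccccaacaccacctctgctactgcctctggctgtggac
The Gpr85 window held CCAAT 4 times and the Gpr173 window held none. The sequence was present at least once in 37.4% of 32544 promoter windows of the same length. The share of windows with 4 matches was not computed, so the count of 4 has no background here. Neither window had a match, on either strand, to the cAMP response element TGACGTCA (in 1.80% of all windows), its short form TGACG (20.9%), the GC box GGGCGG (35.9%), the TATA box TATAAA (13.6%), the CTCF core (2.44%) or the NRF1 motif (0.974%). The short form is contained in the full element. GC content was 33.3% in the Gpr85 window, with 2.43% of all windows lower, and 59.7% in that of Gpr173, where the median window had 53%. Gpr85 has several annotated start sites and the window shows 1 of them.

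How the rest of the class A orphan receptors differed between the groups was asked through a list of 65, of which 62 were in the table and 41 were tested. limma placed 6 of the 41 (14.6%) past an adjusted p-value of 0.05, against 14.1% of all tested genes. Of the 6, 5 were higher and 1 lower, where 6.54% of all tested genes were past it and higher and 7.6% lower. The median log2 fold change of the 41 was 0.00, and that of all tested genes 0.01. The receptors past the threshold were Gpr22, Gpr17, Gpr176, Gpr37l1 and Gpr19, which rose, and Gpr12, which fell. In this list the share past the threshold in either direction was thus close to the background, and the split by direction was not tested.

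Gpr22 and Gpr12 had the largest differences in size among the 6, at 0.42 and -0.42 in log2 units. Gpr22 was at 18.7, 19.2, 19.6, 20.2, 21.1, 23.6 and 24.0 CPM in WT and 23.9, 25.1, 28.0, 29.9 and 35.5 CPM in cKO, so that the lowest cKO library lay within the WT range. By limma the difference was 0.42 in log2 units (SE 0.09) at an adjusted p-value of 0.0130, and Gpr22 was past the threshold in all 23 alternatives, with adjusted p-values up to 0.0431. Gpr17, a receptor of oligodendrocyte precursors, rose from 53.2 ± 5.27 CPM over the 7 WT mice (SD) to 70.5 ± 10.6 CPM over the 5 cKO mice, which limma put at 0.39 in log2 units (SE 0.09) and an adjusted p-value of 0.0142. Its groups did not overlap. Of 9 oligodendrocyte lineage markers, Olig2 and Pdgfra were past limma's threshold and higher, where 6.54% of all tested genes were. The other markers of that list, Olig1 among them, were not past it. The score of the 9 was 8.02 ± 0.342 in WT and 8.13 ± 0.304 in cKO (SD). Their summed level was 4357 to 10202 CPM in WT and 5135 to 10290 CPM in cKO. The part of the lineage markers in the difference of Gpr17 was not tested.

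Gpr176, a receptor of the circadian pacemaker, rose from 19.4 ± 1.48 to 22.6 ± 0.813 CPM, which limma put at 0.21 in log2 units (SE 0.06) and an adjusted p-value of 0.0240, and its groups did not overlap. Gpr37l1, found mainly in astrocytes and the most abundant of the list per length, rose from 241 ± 17.9 to 276 ± 19.2 CPM, which limma put at 0.19 in log2 units (SE 0.06) and an adjusted p-value of 0.0419. The score of 8 astrocyte markers was 8.13 ± 0.155 in WT and 8.28 ± 0.156 in cKO, with 0 of the 8 past limma's threshold. Both that score and Gpr37l1 were highest in cKO 13, with cKO 12 next, and lowest in WT 11 among WT libraries, and the part of the markers in the difference was not tested. Gpr19 rose by 0.18 in log2 units (SE 0.05), at an adjusted p-value of 0.0310 by limma. Gpr12, a receptor with high constitutive cAMP signalling, fell from 26.8 ± 4.04 to 19.8 ± 2.99 CPM, which limma put at -0.42 in log2 units (SE 0.10) and an adjusted p-value of 0.0208. With the thalamic score as a covariate Gpr22 and Gpr151 were the receptors past the threshold, and the other 5 of the 6 were not. Without cKO 14 the list had 3 receptors past it, Gpr12, Gpr17 and Gpr22, and Gpr12 was not past it without cKO 13. Gpr12 and Gpr176 were lost when WT 4, WT 5 and cKO 12 were left out together. Brs3 and Gpr6 were gained there, so that 6 receptors were past it, 4 higher and 2 lower. With the hypothalamic score Gpr101 was gained as well, for 7 receptors, 5 higher and 2 lower. Fitted with the neuronal score, Gpr17, Gpr176, Gpr22, Gpr50 and Mrgpre were past the threshold and Gpr12, Gpr19 and Gpr37l1 were not. Gpr19 was past the threshold in 14 of 23 alternatives and Gpr37l1 in 11 of 23, and both were lost without WT 1, WT 7, WT 11, cKO 8, cKO 13 or cKO 14. Gpr19 was also lost without cKO 9, and Gpr37l1 without WT 6, WT 15 or cKO 12.

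The other abundant receptors of the list were not past the threshold with group as the one term. Gpr162 was at 108 ± 4.23 CPM in WT and 108 ± 5.21 CPM in cKO. Gpr153 was at 107 ± 15.7 and 93.8 ± 9.93 CPM, Gpr37 at 101 ± 26.6 and 98.6 ± 22.0 CPM and Gpr101 at 77.8 ± 14.2 and 64.8 ± 14.2 CPM. Set beside them, the ratio of 1.33 of Gpr85 was close to those of Gpr17 (1.33) and Gpr22 (1.36), and these likenesses of size were not tested.

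**Figure D3:**
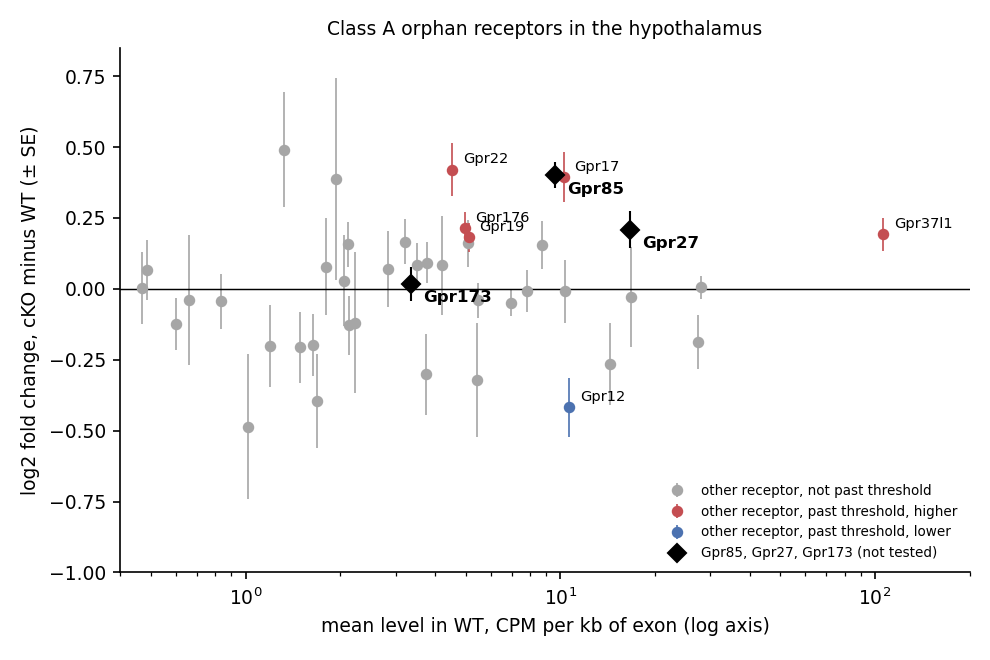
Log2 fold change (cKO minus WT, ± SE) against mean WT level in CPM per kb of exon (log axis) for class A orphan receptors, with the receptors of the list past limma's threshold in red (higher) or blue (lower), the others in grey, and Gpr85, Gpr27 and Gpr173 as black diamonds. Gpr85 sits beside Gpr17 at a log2 fold change of 0.40, and Gpr173 near 0.

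Genes tied to the family by ligand, scaffold or downstream factor form a list of 10 genes, with 7 tested. One of the 7 (14.3%) was past limma's threshold, near the 14.1% of all tested genes. Creb1, a transcription factor of cAMP signalling, rose from 57.2 ± 2.14 CPM over the 7 WT mice (SD) to 62.7 ± 2.40 CPM over the 5 cKO mice, which limma put at 0.13 in log2 units (SE 0.04) and an adjusted p-value of 0.0364. Creb1 was past the threshold in 10 of 23 alternatives, with adjusted p-values of 0.0214 to 0.0855 over them by limma, edgeR or DESeq2. It was not past it when WT 1, WT 4, WT 5, WT 6, WT 11, cKO 8, cKO 9, cKO 13 or cKO 14 was left out. Smim20, the precursor of phoenixin, was at 14.8 ± 0.640 CPM in WT and 15.1 ± 0.957 CPM in cKO (limma adjusted p-value 0.731). Its proposed receptor Gpr173 was likewise close to equal in the groups.

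The other tested genes of this list had values that did not pass. Dlg3, the synaptic scaffold SAP102, was at 130 ± 8.83 and 141 ± 9.15 CPM (limma adjusted p-value 0.134). Without WT 11, its highest WT library, Dlg3 was the one gene of this list past the threshold. Pou2f1, a transcription factor, was at 35.0 ± 4.70 and 30.1 ± 1.65 CPM (limma adjusted p-value 0.106). Kiss1r, the kisspeptin receptor, was at 14.1 ± 0.552 and 15.4 ± 1.72 CPM (limma adjusted p-value 0.252). Thop1, a peptidase that cuts gonadotropin-releasing hormone, was at 39.5 ± 2.67 and 39.4 ± 2.61 CPM (limma adjusted p-value 0.959), and Cebpb at 8.62 ± 0.577 and 9.04 ± 1.18 CPM (limma adjusted p-value 0.654). Gnrh1, Kiss1 and Gnrhr, the genes of the reproductive peptides and of one receptor, were under the CPM minimum, with at most 36, 31 and 2 reads in any library.

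The signalling list held 28 G protein alpha subunits, receptor kinases, arrestins and adenylyl cyclases, all of them tested. limma placed 4 of the 28 (14.3%) past the threshold, near the 14.1% of all tested genes, with 1 higher (6.54% of all genes were) and 3 lower (7.6%). The median log2 fold change was 0.01. Gnaq, the alpha subunit that activates phospholipase C, rose from 270.2 ± 8.11 to 295 ± 6.68 CPM without overlap, which limma put at 0.12 in log2 units (SE 0.03) and an adjusted p-value of 0.0241. Grk3, a receptor kinase, fell from 145 ± 12.9 to 122 ± 5.47 CPM without overlap, which limma put at -0.24 in log2 units (SE 0.06) and an adjusted p-value of 0.0179. Adcy6, an adenylyl cyclase, fell by 0.34 on the log2 scale (SE 0.10; adjusted p-value 0.0324 by limma), and Grk4 by 0.30 (SE 0.08; adjusted p-value 0.0289 by limma), the latter on 48 to 112 reads outside WT 1. Fitted with the thalamic score, 0 of the 28 were past limma's threshold, and 6 had an unadjusted p-value under 0.05. Leaving out WT 1 left Grk3 alone past the threshold. Leaving out WT 11 or cKO 13 left Gnaq and Grk3, and leaving out cKO 14 left Grk3 beside Adcy1. Gnaq was also lost without cKO 8, Adcy6 without WT 6 or cKO 12, and Grk4 without WT 4 or WT 6 and under quantile normalization. Adcy6 was past the threshold in 14 of 23 alternatives and Grk4 in 12 of 22. Fitted with the neuronal score, none of Gnaq, Grk3, Grk4 and Adcy6 was past the threshold, and the 2 genes that were are Adcy1 and Gnaz.

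Neighbouring genes were compared because cohesin shapes chromosome loops that span several genes. For each receptor the 5 nearest tested genes on either side were taken from the RefSeq gene table, 30 in all. limma placed 3 of the 30 (10%) past the threshold, below the 14.1% of all tested genes. The 3 were higher, where 6.54% of all genes were, and the median log2 fold change was 0.09. Around Gpr85, 2 of 10 were past it. This count was 0 (2 to 4 unadjusted) with the thalamic or the neuronal score, with all genes above 0, and without WT 1, WT 6, WT 7, cKO 9, cKO 13 or cKO 14. Tmem106b, a lysosomal membrane protein gene, rose from 203 ± 11.9 to 228 ± 14.9 CPM, which limma put at 0.17 in log2 units (SE 0.05) and an adjusted p-value of 0.0406, and 1110019D14Rik rose from a mean of 0.986 to 1.57 CPM, which limma put at 0.37 in log2 units (SE 0.11) with an adjusted p-value of 0.0456. The latter gene had 16 to 38 reads outside WT 1 and was past the threshold in 9 of 22 alternatives, being lost also without WT 5, WT 11, WT 15 or cKO 12. Tmem106b was also lost by edgeR and without WT 4. The nearest tested genes on either side of Gpr85 were Bmt2, at 33.7 ± 1.19 and 36.9 ± 3.68 CPM (limma adjusted p-value 0.149), and 2610001J05Rik, which limma put at 0.12 in log2 units (SE 0.06) and an adjusted p-value of 0.183.

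Around Gpr27, 0 of 10 neighbours were past the threshold by limma, edgeR or DESeq2, a count too small to set apart from the 14.1% of all genes, with 3 at an unadjusted p-value under 0.05 in limma and 2 in each of the other tools. Without cKO 12, Ppp4r2 was past it. The neighbour past the threshold around Gpr173 was Smc1a, a cohesin subunit gene like Smc3. Smc1a was at 109, 109, 110, 112, 112, 113 and 118 CPM in WT and 119, 122, 123, 125 and 125 CPM in cKO, without overlap, which limma put at 0.13 in log2 units (SE 0.03) and an adjusted p-value of 0.0178. The tested genes between Smc1a and Gpr173 were Iqsec2, Kdm5c, Kantr and Tspyl2, none of them past the threshold, with log2 fold changes of -0.04, -0.08, 0.00 and 0.08. Fitted with the neuronal score, 3 of the 10 neighbours of Gpr173 were past the threshold and higher, Smc1a, Tspyl2 and Mageh1. These were the 3 of all 30 neighbours past it in that fit (10%), which called 1620 of 15359 genes, 812 of them higher. Fitted with the thalamic score, 0 of the 30 neighbours were past limma's threshold, and 7 had an unadjusted p-value under 0.05. Smc1a alone of the 30 was past it when WT 1, WT 6, WT 7, cKO 9, cKO 13 or cKO 14 was left out, and Smc1a was lost when WT 4, WT 5 and cKO 12 were left out together.

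**Figure D4:**
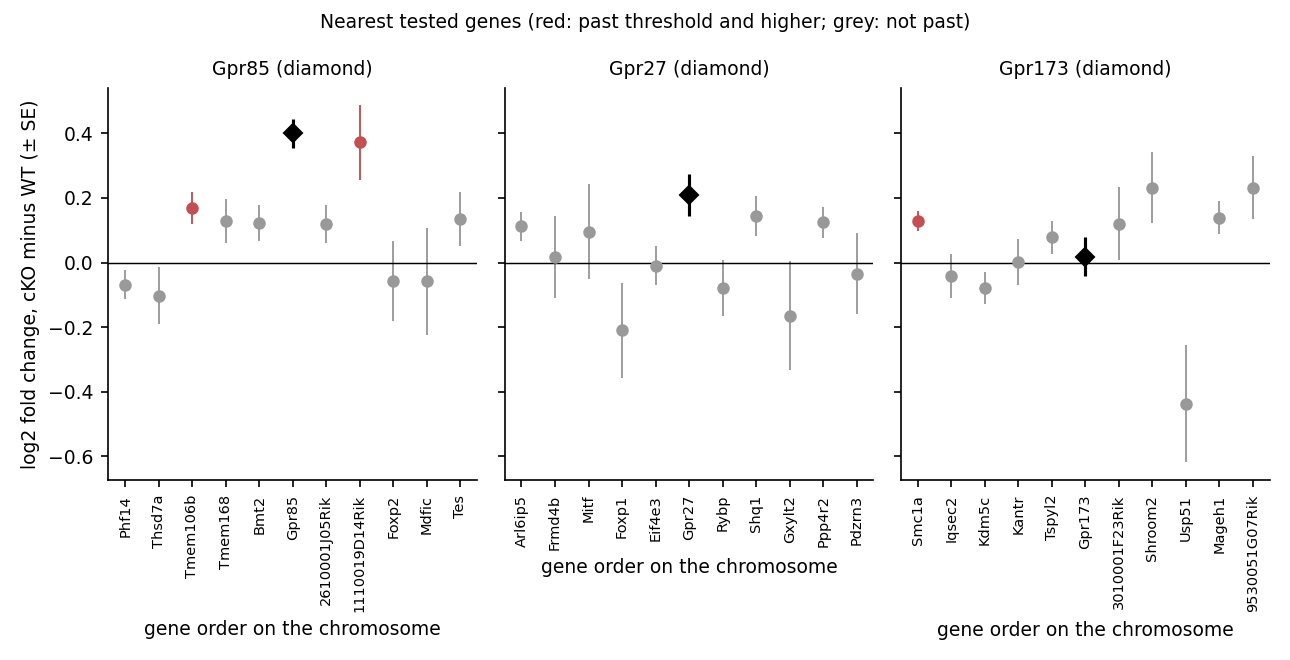
Log2 fold change (cKO minus WT, ± SE) of each receptor (black diamond) and of the 5 nearest tested genes on either side, in chromosome order, with genes past limma's threshold in red and the others in grey. Gpr85, at 0.40, stands above Bmt2 and 2610001J05Rik beside it, at 0.12 each, and near 1110019D14Rik, the gene after 2610001J05Rik, at 0.37 (SE 0.11).

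The genes most like each receptor across mice were found by Pearson's r of log2(CPM + 1) over the 12 libraries after the mean of each group was subtracted, so that the group difference did not enter. For Gpr85 the nearest of the other tested genes were Zfp937 (r = 0.92), Msantd4 (0.91), Zfp60 (0.91), Nlgn1, a synaptic adhesion gene (0.90), and Rngtt, an mRNA capping enzyme (0.89). For Gpr27 they were Dlg2, a synaptic scaffold (0.95), Marcks (0.95), Acvr1b (0.95), Txnrd1 (0.94) and Lrp10 (0.94). For Gpr173 they were Ccdc158 (0.92), Zcchc9 (0.92), Golm2 (0.89), Btg1 (0.87) and Spata17 (0.87). The 3 lists share no gene. The same measure was 0.43 between Gpr85 and Gpr27, 0.66 between Gpr85 and Gpr173 and 0.38 between Gpr27 and Gpr173, which placed Gpr173 276th in likeness to Gpr85. The SD of Gpr85 was 0.860 CPM in WT and 3.91 CPM in cKO, so its r values rest mainly on the 5 cKO libraries. These values share libraries and depth, and each gene listed is the top of many, so they are given as descriptions.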

How the data were processed

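Total RNA of hypothalamus was column-purified, messenger RNA was isolated and NEBNext Ultra II was the library kit, per the labels' protocols. STAR 2.7.9a, SAMtools, Subread, featureCounts and FastQC 0.11.9 are named in the submitters' processing notes. Genome build, annotation and strand setting are not given in the sources used here. The authors deposited normalized CPM of 32494 genes in 12 libraries. Their deposited comparison table gives log2 fold changes, a log2 mean CPM and p-values, and its p-values are not printed here. The deposited CPM were whole multiples of 1 step per library for 100% of values above 0 (tolerance 0.01 reads), so whole reads were recovered, and the implied scaling factors, 0.987 to 1.02, were those of edgeR's TMM. Columns were matched to mice by name, with 0 left unused. A level of 3 reads was 0.0436 to 0.178 CPM, which covers counting error only. Counts of 2 libraries of a group gave a chi-square per degree of freedom of 3.04 or more, so each library counted as a sample. Separate mouse numbers are taken as separate animals, though the labels do not say so. The p-values measure the spread between these libraries.

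The test was limma (3.58.1, R 4.3.3; lmFit and trended eBayes) with group as the one term, on log2(CPM + 1) of the 15359 genes whose mean reached 1 CPM, with Benjamini-Hochberg adjustment and a threshold of 0.05. Fold changes on this scale understate low genes. The fit was also run on simulated counts, and no result here rests on that run. Alternatives were median centring, quantile normalization, 0.1 as the pseudocount, a minimum of 5 CPM, all genes above 0, DESeq2 (1.42.0) or edgeR (4.0.16, quasi-likelihood) on the recovered reads, thalamic and neuronal marker scores as covariates, and leaving out each mouse. A hypothalamic score as a covariate and leaving out WT 4, WT 5 and cKO 12 together were added after seeing the data. Members and lists were chosen with earlier results of these data known. Named genes were the members, Smc3, partner genes, genes overlapping a member, neighbours past the threshold, up to 10 orphan receptors and 8 signalling genes past it by size of change, the 5 most abundant receptors and the 5 genes most like each member. Other genes named (Kdm5c, Kantr, Iqsec2, Tspyl2, Bmt2, 2610001J05Rik, Gpr151, Gpr50, Mrgpre, Brs3, Gpr6, Ppp4r2, Mageh1, Adcy1, Gnaz and the called markers) were chosen after their values were seen. Coding sequences came from GENCODE M21 and were aligned with mafft. Promoters and gene order came from RefSeq, GRCm38.p6.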

Additional observations from a re-analysis of the deposited data

Results flagged for a closer look

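In 68 sets of values, each of 1 quantity in 1 group, 5 had a library distant from the others by the test used, and chance gives about 1 in 20, or 3.4 here. None was a value of Gpr85, Gpr27 or Gpr173. WT 1 had 68.7 M reads (M for mega), with the next WT library at 24.0 M. Gpr17 was at 42.3 CPM in WT 4, below the next WT value of 52.0, and at 88.7 CPM in cKO 8, above the next cKO value of 69.9. Dlg3 was at 149 CPM in WT 11, above the next WT value of 132. The score of cortical and striatal neuron genes was 3.12 in cKO 8, above the next cKO value of 2.80.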

How the results depend on the processing

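No paired analysis was possible because the groups share no mouse number. Over 23 alternatives the differences of Gpr85, Gpr27 and Gpr173 moved by less than their within-group SD. Leaving out 1 mouse gave 0.37 to 0.44 for Gpr85, 0.18 to 0.26 for Gpr27 and -0.02 to 0.05 for Gpr173. Among all tested genes, 833 of 15359 were past the threshold with the thalamic score, 1620 with the neuronal score and 2976 with the hypothalamic score, and 1158 (without WT 1) to 2302 when 1 mouse was left out. By edgeR's quasi-likelihood test they numbered 2098, and by DESeq2 2747.

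With the thalamic score 2 orphan receptors, 0 partner genes (2 at an unadjusted p-value under 0.05), 0 signalling genes and 0 neighbours were past limma's threshold. With all genes above 0 there were 0 partner genes (3 unadjusted), 2 signalling genes and 1 neighbour. That fit called 1544 of all its tested genes. With the neuronal score there were 0 partner genes (3 unadjusted) and 2 signalling genes, Adcy1 and Gnaz, neither among the 4 named. With the hypothalamic score there were 6 of 30 neighbours, beside the 2976 of 15359 genes in that fit. Without WT 4, WT 5 and cKO 12 there were 0 partner genes (1 unadjusted), beside 1948 of all tested genes. In these settings the cause was not tested. Leaving out 1 mouse gave 3 (without cKO 14) to 7 orphan receptors, 0 to 1 partner genes, 1 (without WT 1) to 5 signalling genes and 1 to 3 neighbours. The partner count was 0 without WT 1, WT 4, WT 5, WT 6, cKO 8, cKO 9, cKO 13 or cKO 14, with 2 or 3 genes unadjusted. Signalling genes were also 2 without WT 11, cKO 13 or cKO 14, and neighbours 1 without WT 1, WT 6, WT 7, cKO 9, cKO 13 or cKO 14.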
